A study of Homo sapiens with 15 samples.

Results

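The 8 genes ACOD1, IDO1, KYNU, KMO, GCH1, ARG2, ASS1 and NAMPT encode enzymes in the metabolism of itaconate, tryptophan, arginine, the cofactor tetrahydrobiopterin (GCH1) and the NAD precursor nicotinamide. They were picked by symbol from the table of gene counts, where each symbol had 1 row of 60286. The 15 RNA-seq libraries come from THP-1, a human monocytic leukemia cell line, and form 5 groups of 3. Non-stimulated cells (NC) were given PBS. Cells in the EUC and EPL groups were given bacterial extracellular vesicles (BEVs) of *E. coli* at 1 μg/mL of protein, isolated by ultracentrifugation (UC) or by precipitation with ε-poly-L-lysine (PL). Those in the SUC and SPL groups were given *S. aureus* BEVs at 10 μg/mL, isolated by UC or PL. Cells of all groups were labelled wild type and were grown in medium with serum and antibiotics. The samples are labelled Day 0, and incubation lasted 6 h. The comparisons ask how much the BEVs of each species changed these genes, and whether the isolation method mattered. Species and dose changed together and cannot be told apart, and the study states triplicates without saying whether they were separate cultures, so p-values measure the spread between these libraries.

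ACOD1 makes itaconate from cis-aconitate, an intermediate of the citric acid cycle, and is known as a gene that macrophages switch on under bacterial stimulation. IDO1 opens the kynurenine route by cleaving tryptophan, KMO hydroxylates kynurenine, and KYNU cleaves kynurenine and its hydroxylated form, a route that can end in NAD. GCH1 starts the synthesis of tetrahydrobiopterin, the cofactor of nitric oxide synthases. ASS1 rebuilds arginine from citrulline, ARG2 is the mitochondrial arginase that splits arginine, and NAMPT is the rate-limiting enzyme that recycles nicotinamide into NAD.

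Between 14399421 and 16637345 reads were counted on genes per library. Sums of 10 monocyte markers were 1290 to 1310 CPM (read counts relative to library size, normalized by TMM) in NC and 1760 to 2290 CPM in the stimulated libraries. SPI1, at 470.6 CPM in NC and 960.3 to 1198 CPM in the stimulated means, made most of this difference, while the other 9 markers summed to 823 to 836 CPM in NC and 768 to 931 CPM in the stimulated libraries. MPO was called lower and SPI1 higher in all 4 stimulated groups. CD14 was called higher in EUC and SUC, from 3.773 CPM in NC to 8.875 and 7.993 CPM. The median log2 fold change of the 9 tested markers was −0.25 with EUC, −0.05 with EPL, 0.03 with SUC and −0.14 with SPL. CD68 had 18 counts over all libraries, but 1765 of its 2163 exon bases are shared with a lncRNA on the same strand, how shared reads were counted is not given in the sources used here, and so this count does not measure its level. T cell markers summed to at most 0.0624 CPM, with CD3D and CD3G at 0 in every library. The 4 B cell, 4 epithelial and 4 fibroblast markers summed to 1.58 to 5.96, 1.37 to 4.05 and 2.15 to 6.76 CPM over the 15 libraries, and COL1A1 of the last list was higher in all 4 stimulated groups. Their part in the results was not tested, and in such bulk RNA a change in the share of cells and a change in RNA per cell cannot be told apart. The libraries EUC3, EPL1 and SUC3 stood apart from their replicates over all genes, with chi-square values per degree of freedom of 18.07 to 54.22 in the pairs that hold one of them and 2.311 to 8.054 in the other pairs. EUC3 was the highest library of its group for 6 of the 7 tested members.

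A gene was called a differentially expressed gene (DEG) at an adjusted p of at most 0.01 in edgeR's quasi-likelihood test together with a change of 1 or more on the log2 scale, up or down. Of the 8 members, 7 passed the filter on low counts and were tested, among 17198 tested genes. ACOD1 and IDO1, with no count in NC, passed it only through stimulated libraries, so against NC they could only come out higher. ACOD1, IDO1, KYNU, KMO, GCH1 and NAMPT were higher than in NC in each of the 4 stimulated groups, and ASS1 was not a DEG in any. The members called were thus 6 of 7 in each comparison, beside 9.43% of all tested genes called higher with EUC, 9.38% with EPL, 6.82% with SUC and 7.76% with SPL, and 6.33% called higher in all 4. No member was called lower, beside 5.75% of tested genes with EUC, 5.15% with EPL, 3.06% with SUC and 3.7% with SPL. The same 6 members had every one of the 12 stimulated libraries above every NC library, a pattern that 17.5% of the tested genes shared. On the log2 scale the 7 tested members had a median change of 3.59 for EUC, 3.29 for EPL, 3.16 for SUC and 3.19 for SPL, while that of all tested genes was between −0.01 and 0.01. The 4 comparisons share the NC libraries. When EUC3, EPL1 and SUC3 were left out together, a choice made after seeing the data, 6 members were again called higher in each.

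**Figure D1:**
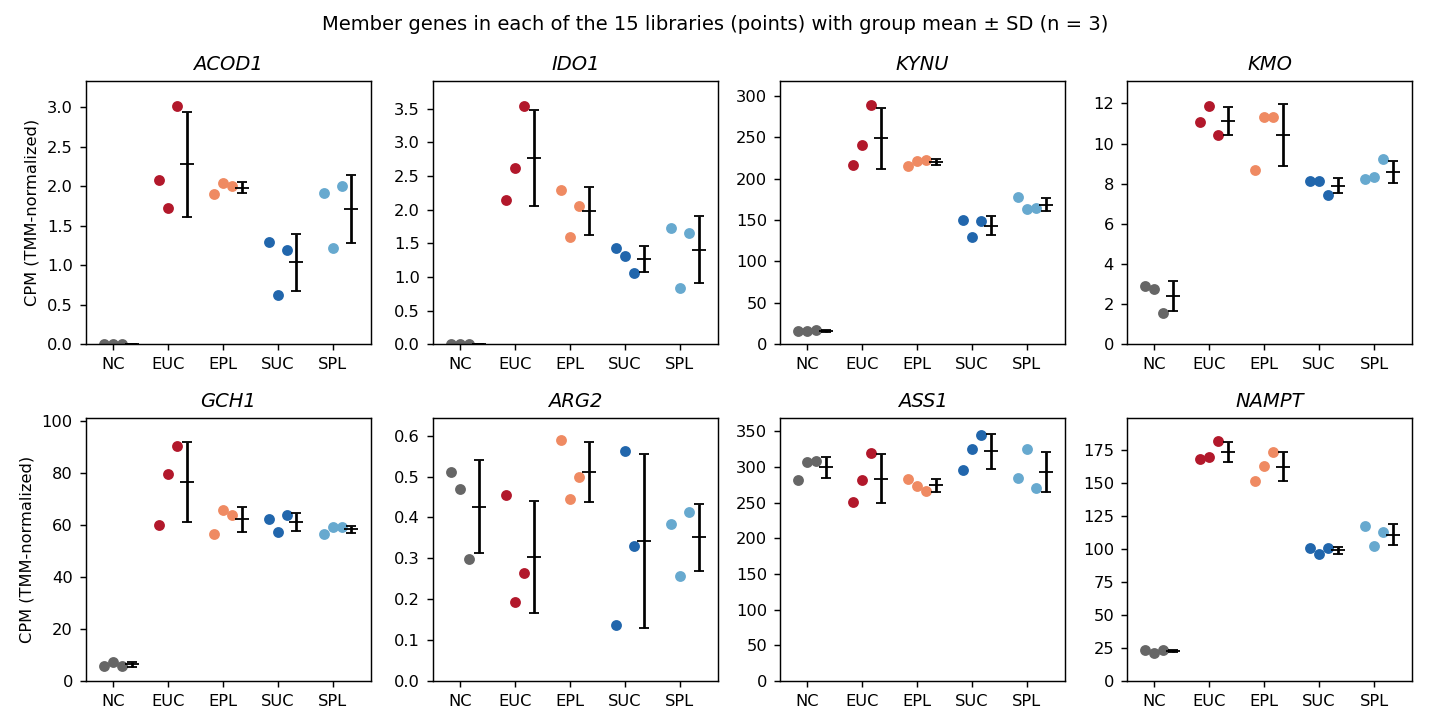
Normalized CPM of each member (vertical axis from 0) in each library, with the 5 groups on the horizontal axis, 1 point per library and a bar for the group mean ± SD (n = 3). ACOD1 and IDO1 are at 0 in NC, and KYNU, KMO, GCH1 and NAMPT have no stimulated library as low as any NC library, while ARG2 and ASS1 overlap between NC and stimulated libraries.

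Start regions were taken from RefSeq (build GRCh38.p14) for ACOD1, KYNU, KMO, ARG2, ASS1 and NAMPT. They are windows of 300 bases on the gene's strand, 250 before the start and 50 from it on. No start region was searched for GCH1 and IDO1. Those of ACOD1, KYNU and KMO, 3 members that rose in every stimulated group, are shown 5′ to 3′ with motif matches in capitals: TATAAA in all 3, and in KYNU also TTCNNNGAA, a STAT motif, and TTGCNNAA, a C/EBP motif.
ACOD1, chr13:76948261-76948560, + strand: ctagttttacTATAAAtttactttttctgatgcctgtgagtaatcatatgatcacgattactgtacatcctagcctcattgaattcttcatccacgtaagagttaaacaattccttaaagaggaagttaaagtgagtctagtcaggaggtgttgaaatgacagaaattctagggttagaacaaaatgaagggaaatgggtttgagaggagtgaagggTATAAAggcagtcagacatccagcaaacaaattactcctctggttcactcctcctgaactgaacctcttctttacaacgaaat
KYNU, chr2:142877414-142877713, + strand: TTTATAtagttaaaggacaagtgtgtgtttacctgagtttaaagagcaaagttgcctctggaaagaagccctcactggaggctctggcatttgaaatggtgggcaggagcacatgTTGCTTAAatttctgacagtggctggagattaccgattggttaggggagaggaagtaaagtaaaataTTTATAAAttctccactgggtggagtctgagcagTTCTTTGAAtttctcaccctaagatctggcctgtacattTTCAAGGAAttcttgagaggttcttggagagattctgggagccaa
KMO, chr1:241532128-241532427, + strand: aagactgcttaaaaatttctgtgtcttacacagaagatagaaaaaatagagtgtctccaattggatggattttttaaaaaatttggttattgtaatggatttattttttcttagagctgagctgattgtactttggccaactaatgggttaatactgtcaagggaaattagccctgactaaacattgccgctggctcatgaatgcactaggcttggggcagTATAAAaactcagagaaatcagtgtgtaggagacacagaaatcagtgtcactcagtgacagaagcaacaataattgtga
Both strands were searched. TATAAA had no match in the windows of ARG2, ASS1 and NAMPT, which are not shown. Of these, NAMPT also rose in every stimulated group. TATAAA lay at −240 and −33 from the start in ACOD1 and at −29 in KMO, and in KYNU at −250 and −68 on the other strand and at −66 on the gene's strand, the last pair overlapping. TTCNNNGAA matched KYNU at −34 and at base 6 of the transcript, and TTGCNNAA matched it at −135 and NAMPT at base 7. Among 35116 such windows of all genes, TATAAA was in 11.5%, TTCNNNGAA in 7.66% and TTGCNNAA in 10.5%. The NF-kappa B consensus (in 11.3% of windows), the interferon response motif (3.57%) and the AP-1 motif TGANTCA (7.71%) had no match in the windows searched. This says only that these letters are not in these 300 bases, and nothing about IDO1 and GCH1, which were not searched. The matches are descriptions of sequence and not of binding.

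ACOD1 (ENSG00000102794, chr13:76948511-76958638, + strand, 5 exons; build hg38, annotation GENCODE 44, also for the positions that follow) had no count in any of the 3 NC libraries. The EUC libraries had 32, 27 and 46 counts, the EPL libraries 29, 32 and 32, the SUC libraries 19, 10 and 18, and the SPL libraries 30, 19 and 29. Itaconate synthase RNA thus appeared in all 12 stimulated libraries, at low levels. Mean CPM was 2.278 ± 0.669 (SD, n = 3) for EUC, 1.98 ± 0.0699 for EPL, 1.037 ± 0.361 for SUC and 1.713 ± 0.426 for SPL. Set against the 3 counts over the NC libraries that a count of 0 allows (0.0607 CPM), these were at least 37.4-fold, 32.6-fold, 16.9-fold and 28.1-fold higher. The rises had adjusted p-values from 3.79e-07 (EUC) to 1.4e-05 (SUC) in edgeR's quasi-likelihood test, for a gene that passed the filter only through stimulated libraries. In SUC the lowest library had only 10 counts, so its level is the least precise of the 4.

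IDO1 (ENSG00000131203, chr8:39902275-39928790, + strand, 10 exons), the first enzyme of the kynurenine route, also had no count in NC and passed the filter only through stimulated libraries. Its counts were 33, 41 and 54 in EUC, 35, 25 and 33 in EPL, 21, 21 and 16 in SUC, and 27, 13 and 24 in SPL. All 12 stimulated libraries thus held IDO1 reads, and the *E. coli* and *S. aureus* libraries overlapped only through SPL. The means were 2.774 CPM ± 0.713 (SD, n = 3) with EUC, 1.983 CPM ± 0.358 with EPL, 1.268 CPM ± 0.193 with SUC and 1.405 CPM ± 0.493 with SPL. Against the same floor they were at least 45.6-fold, 32.6-fold, 20.9-fold and 23.1-fold higher than NC, with adjusted p-values from 1.64e-07 to 5.65e-06 in edgeR's quasi-likelihood test. An antisense lncRNA shares 120 exon bases with IDO1, and whether the counting used strand is not given in the sources used here.

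KYNU (ENSG00000115919, chr2:142877657-143055833, + strand, 14 exons) encodes kynureninase and was the kynurenine gene with the most counts among the members. Its CPM was 15.48, 15.59 and 16.93 in the NC libraries and 216.7, 240.7 and 289.3 in the EUC libraries. It was 215.7, 221.3 and 223.0 in the EPL libraries, 149.9, 129.7 and 149.3 in the SUC libraries, and 177.5, 163.4 and 164.3 in the SPL libraries. The lowest stimulated library was far above the highest NC library, and the *E. coli* libraries were all above the *S. aureus* libraries. KYNU rose 15.54-fold in EUC (95% interval 13.21 to 18.29), 13.74-fold in EPL (11.69 to 16.16), 8.928-fold in SUC (7.617 to 10.46) and 10.52-fold in SPL (8.964 to 12.34). The adjusted p-values were between 2.46e-14 and 4.14e-13 (edgeR's quasi-likelihood test, Benjamini-Hochberg adjustment). The 3 annotated KYNU pseudogenes had 0 counts.

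KMO (ENSG00000117009, chr1:241532134-241595642, + strand, 15 exons), whose product hydroxylates kynurenine ahead of KYNU, was present before stimulation and rose less. It was at 2.879, 2.764 and 1.55 CPM in NC, 11.06, 11.85 and 10.45 in EUC, 8.661, 11.34 and 11.3 in EPL, 8.13, 8.123 and 7.459 in SUC, and 8.24, 8.308 and 9.238 in SPL. No stimulated library was as low as NC, and EPL1 lay within the range of the SPL libraries. The rise was 4.637-fold in EUC (95% interval 3.546 to 6.064), 4.353-fold in EPL (3.326 to 5.697), 3.296-fold in SUC (2.505 to 4.337) and 3.582-fold in SPL (2.727 to 4.706), with adjusted p-values from 2.94e-08 to 1.46e-06 in edgeR's quasi-likelihood test. KMO shares 1691 exon bases with OPN3 on the other strand. OPN3 itself was at 0.6474 to 0.8791 CPM on average in the 5 groups, below KMO in each, and was not a DEG in any comparison with NC.

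**Figure D2:**
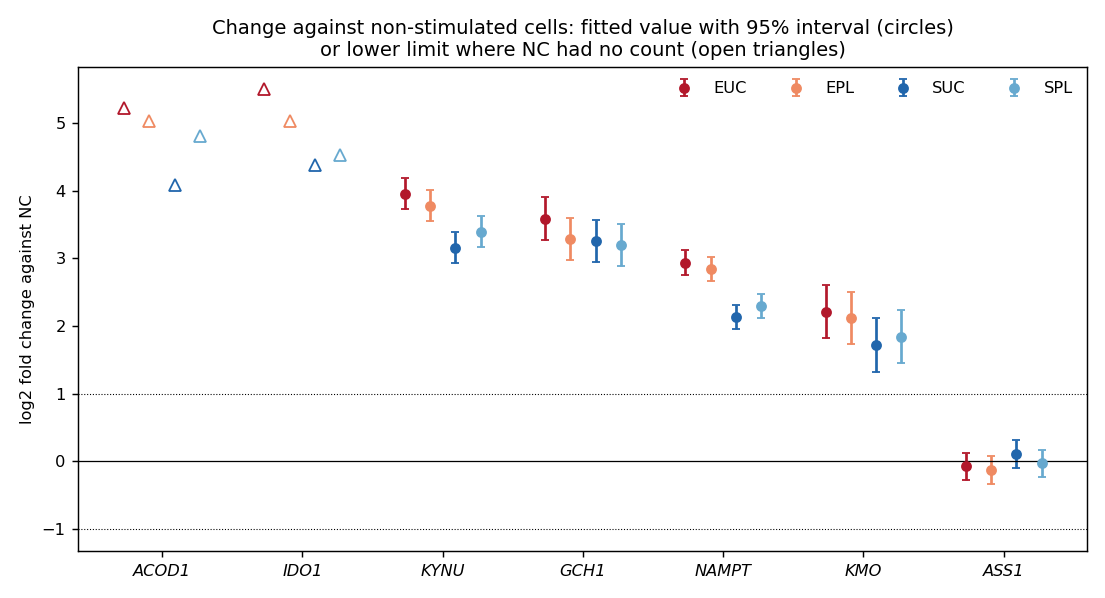
Log2 fold change against NC (vertical axis) of the 7 tested members in EUC, EPL, SUC and SPL. Circles are edgeR estimates with 95% intervals, open triangles are lower limits for ACOD1 and IDO1, which had no count in NC, and dotted lines mark a log2 fold change of 1 and −1; KYNU, GCH1, NAMPT and KMO lie above 1 with their whole intervals, and ASS1 lies around 0.

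GCH1 (ENSG00000131979, chr14:54842008-54902826, − strand, 6 exons), which starts tetrahydrobiopterin synthesis, had means between 58.35 and 62.23 CPM in EPL, SUC and SPL and 76.75 CPM in EUC. It was at 5.887, 7.47 and 5.723 CPM in NC, 59.96, 79.84 and 90.46 in EUC, 56.62, 66.01 and 64.06 in EPL, 62.24, 57.23 and 63.9 in SUC, and 56.72, 59.19 and 59.15 in SPL. The 4 stimulated groups overlapped, with only EUC2 and EUC3 above all libraries of the others. GCH1 was 12.04-fold higher than NC in EUC (95% interval 9.7 to 14.94), 9.763-fold in EPL (7.873 to 12.11), 9.587-fold in SUC (7.731 to 11.89) and 9.154-fold in SPL (7.382 to 11.35). All 4 adjusted p-values were at most 1.68e-11 in edgeR's quasi-likelihood test.

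NAMPT (ENSG00000105835, chr7:106248298-106285966, − strand, 11 exons), of the nicotinamide salvage route to NAD, was at 23.16, 21.47 and 23.37 CPM in NC. It was at 168.3, 170.1 and 182.2 CPM in EUC, 151.7, 162.9 and 173.6 in EPL, 100.5, 96.29 and 100.9 in SUC, and 117.7, 102.5 and 113.1 in SPL. The libraries fell in 3 levels without overlap, NC lowest, the *S. aureus* groups between, and the *E. coli* groups highest. The rise was 7.655-fold in EUC (95% interval 6.753 to 8.678), 7.178-fold in EPL (6.335 to 8.134), 4.377-fold in SUC (3.871 to 4.95) and 4.902-fold in SPL (4.333 to 5.545), with adjusted p-values of at most 2.55e-12 in edgeR's quasi-likelihood test. NAMPT shares 545 exon bases with an antisense lncRNA, and its 3 pseudogenes held 0.125 to 0.545% of the reads of NAMPT and its pseudogenes in each library.

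ASS1 (ENSG00000130707, chr9:130444961-130501274, + strand, 15 exons), which joins citrulline and aspartate on the way back to arginine, was at a high level before and after stimulation. It was at 282.1, 307.6 and 308.6 CPM in NC, 250.5, 281.7 and 319.4 in EUC, 283.4, 273.4 and 266.1 in EPL, 295.8, 325.8 and 344.7 in SUC, and 284.4, 325.1 and 271.0 in SPL. NC overlapped EUC, EPL, SUC and SPL. The log2 fold changes against NC were −0.08 (95% interval −0.28 to 0.13) in EUC, −0.13 (−0.33 to 0.08) in EPL, 0.11 (−0.10 to 0.31) in SUC and −0.03 (−0.23 to 0.17) in SPL, with adjusted p-values from 0.325 to 0.855 in edgeR's quasi-likelihood test. These intervals leave room for changes of up to about 0.33 on the log2 scale and for none of 2-fold. The sign in EUC and in SPL turned when a single library (EUC1, NC2, SPL1 or SPL3) was left out, with values between 0.0008 and 0.0374. ASS1 has 14 annotated pseudogenes, which together held 86 counts over the 15 libraries against 68990 for ASS1.

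ARG2 (ENSG00000081181, chr14:67619920-67651708, + strand, 8 exons), the mitochondrial arginase, was the only member below the filter. It had 8, 8 and 5 counts in NC, 7, 3 and 4 in EUC, 9, 7 and 8 in EPL, 2, 9 and 5 in SUC, and 6, 4 and 6 in SPL. The groups overlapped, and no difference was detectable at this depth. Ratios to NC with exact intervals for counting error were 0.713 (0.335 to 1.47) in EUC, 1.2 (0.641 to 2.27) in EPL, 0.822 (0.401 to 1.65) in SUC and 0.824 (0.402 to 1.66) in SPL. The 12 stimulated libraries averaged 0.3775 CPM and the 3 NC libraries 0.4268 CPM (two-sided exact permutation test, p = 0.598, chosen after seeing the data; the smallest p it can give is 0.0022). ARG2 shares 904 exon bases with VTI1B on the other strand, which was at 28.7 to 34.18 CPM on average in the 5 groups, far above ARG2, so reads of either gene near that overlap may not be assigned with certainty.

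Between genes, levels were compared as TPM, which divides the counts by the gene's length, here that of the union of its exons. In NC, ASS1 led with 394.3 TPM ± 10.3 (SD, n = 3), followed by GCH1 with 8.643 TPM ± 1.26, NAMPT with 3.824 TPM ± 0.22, KYNU with 3.647 TPM ± 0.136, KMO with 1.61 TPM ± 0.519 and ARG2 with 0.7459 TPM ± 0.212. NAMPT and KYNU did not differ beyond their spread there. In EUC, ASS1 still led with 316.3 TPM ± 11.3, followed by GCH1 at 87.89 TPM ± 11.2, KYNU at 47.91 TPM ± 2.51, NAMPT at 24.87 TPM ± 1.3, KMO at 6.353 TPM ± 0.875, ACOD1 at 3.54 TPM ± 0.743, IDO1 at 2.652 TPM ± 0.424 and ARG2 at 0.4568 TPM ± 0.237, where ACOD1 and IDO1 did not differ beyond their spread. These places depend on the length used, since the union of NAMPT's exons is 23584 bases and its canonical transcript is 4360 bases. With canonical lengths NAMPT was above GCH1, at 11.92 against 4.999 TPM in NC and at 79.51 against 52.0 TPM in EUC, where KYNU was at 32.55 TPM. ACOD1 and IDO1 exchanged places in EUC, at 2.087 and 2.949 TPM with canonical lengths and at 2.645 and 3.737 TPM with the longest transcripts.

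The order of the mean levels was EUC, EPL, SPL, SUC and NC for ACOD1, IDO1, KYNU, KMO and NAMPT. For GCH1 it was EUC, EPL, SUC, SPL and NC. Neighbours in these orders often overlapped: the EUC and EPL libraries did for all 6 genes, and EPL and SPL did for ACOD1, IDO1 and KMO but not for KYNU and NAMPT. ASS1 was ordered SUC, NC, SPL, EUC and EPL, and ARG2 EPL, NC, SPL, SUC and EUC, with overlap between neighbours in both.

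The mean of the *E. coli* groups was then compared with that of the *S. aureus* groups. NAMPT and KYNU were higher with *E. coli* BEVs at 1 μg/mL than with *S. aureus* BEVs at 10 μg/mL, although neither passed the fold threshold. NAMPT differed by 0.68 on the log2 scale (SE 0.0552, 95% interval 0.56 to 0.80, adjusted p = 1.15e-06) and KYNU by 0.59 (SE 0.0679, 0.45 to 0.74, adjusted p = 2.58e-05) in edgeR's quasi-likelihood test. That is 1.6-fold and 1.508-fold, and in both genes all 6 *E. coli* libraries were above all 6 *S. aureus* libraries. By adjusted p alone, 2 of 7 tested members were higher with *E. coli* BEVs, beside 2.87% of all tested genes, and 2 of 8 members had every library higher, beside 3.05%. With the fold threshold 0 members were called, beside 0.663% of genes called higher and 0.0233% called lower, and DESeq2 likewise called 0, while 6 members had an unadjusted p under 0.05, as did 17.0% of all tested genes.

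The other members differed less clearly between the species. IDO1 was higher by 0.81 (95% interval 0.33 to 1.29, adjusted p = 0.0418), ACOD1 by 0.67 (0.18 to 1.16, adjusted p = 0.112), KMO by 0.39 (0.15 to 0.63, adjusted p = 0.0513) and GCH1 by 0.21 (0.02 to 0.40, adjusted p = 0.213) on the log2 scale in edgeR's quasi-likelihood test, all with the *E. coli* groups above. ASS1 was at −0.14 (−0.28 to 0.00, adjusted p = 0.312). None of these 5 passed the adjusted p of 0.01. Their intervals are wider for IDO1 and ACOD1, the members with the fewest counts, and reach past a log2 fold change of 1. With EUC3, EPL1 and SUC3 left out, KMO reached an adjusted p of 0.00866 at a difference of 0.44, IDO1 was at 0.58 with an adjusted p of 0.162, and NAMPT and KYNU stayed at 0.69 and 0.55.

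**Figure D3:**
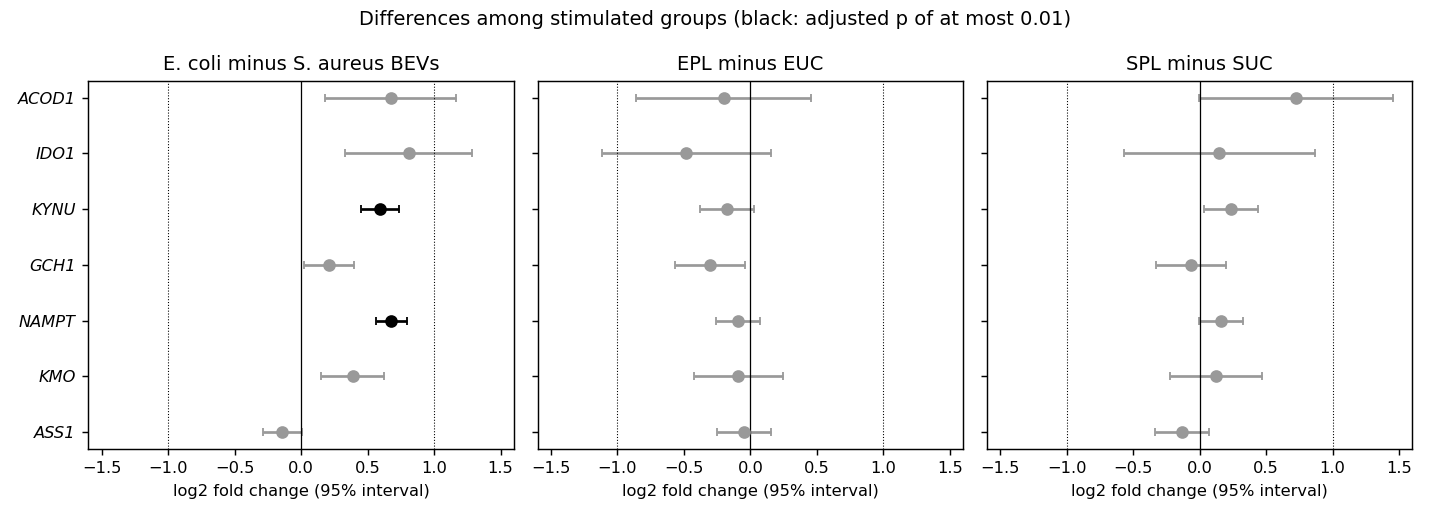
Log2 fold change (horizontal axis, point with 95% interval) of the 7 tested members between the species, and between isolation methods within *E. coli* and within *S. aureus* BEVs. Black points have an adjusted p of at most 0.01, dotted lines mark a log2 fold change of 1 and −1; only KYNU and NAMPT are black, in the comparison of the species.

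Within a species, the members did not separate by isolation method at the thresholds used. In EPL against EUC 0 of 7 tested members were called by edgeR's quasi-likelihood test, as were 0.0% of all tested genes. DESeq2 also called 0 members. In edgeR's test 1 member, GCH1, had an unadjusted p under 0.05, as did 3.51% of all tested genes. GCH1 was at −0.30 on the log2 scale in EPL minus EUC (95% interval −0.56 to −0.04, adjusted p = 0.947). Without EUC3 this moved to −0.17. The intervals of KYNU (−0.38 to 0.02), NAMPT (−0.26 to 0.07), KMO (−0.42 to 0.24) and ASS1 (−0.25 to 0.15) stay within a 2-fold change, as that of ACOD1 does (−0.86 to 0.46), and the interval of IDO1 (−1.12 to 0.15) does not.

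In SPL against SUC, 0 of 7 tested members were called by edgeR's quasi-likelihood test or by DESeq2, beside 0.00581% of genes called higher. KYNU had an unadjusted p under 0.05, as did 5.81% of all tested genes, and KYNU, KMO and NAMPT had every SPL library above every SUC library, beside 6.87% of the tested genes. The log2 differences were 0.24 for KYNU (95% interval 0.03 to 0.44, adjusted p = 0.814), 0.16 for NAMPT (−0.00 to 0.33, adjusted p = 0.854) and 0.12 for KMO (−0.23 to 0.47, adjusted p = 0.924) in edgeR's quasi-likelihood test. ACOD1 was at 0.73 (−0.00 to 1.46, adjusted p = 0.854), IDO1 at 0.15 (−0.57 to 0.86), GCH1 at −0.07 (−0.33 to 0.20) and ASS1 at −0.13 (−0.34 to 0.07). Tested as an interaction, the method difference in *E. coli* minus that in *S. aureus* BEVs was −0.41 for KYNU (−0.70 to −0.13) and −0.26 for NAMPT (−0.49 to −0.02), both with an unadjusted p under 0.05, as 3.83% of all tested genes had, and an adjusted p of 1.0. Here 0 of 7 members and 0.0% of all tested genes were called, and DESeq2 also called 0 members.

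Of 10 further genes of the kynurenine route, 9 were tested, and IDO2 and TDO2, the other enzymes that open tryptophan's ring, were called higher in all 4 comparisons with NC. That is 2 of 9 beside 6.33% of all tested genes, and 0 of 9 were called lower in all 4, beside 2.41%. With 1 and 2 counts over the NC libraries, IDO2 and TDO2 passed the filter only through stimulated libraries. IDO2 had 0, 0 and 1 counts in NC, 34, 26 and 31 in EUC, 31, 23 and 38 in EPL, 7, 9 and 10 in SUC, and 13, 12 and 5 in SPL. Its ratio to NC was 97.3 in EUC (exact interval for counting error 17.0 to 3890) and 28.1 in SUC (4.61 to 1150). IDO2 was higher with *E. coli* than with *S. aureus* BEVs, and the difference of 1.68 on the log2 scale (SE 0.2586, adjusted p = 0.000434) passed both thresholds in edgeR's quasi-likelihood test.

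TDO2 had 0, 2 and 0 counts in NC, 29, 26 and 51 in EUC, 36, 12 and 28 in EPL, 31, 29 and 38 in SUC, and 27, 21 and 36 in SPL. All stimulated libraries were above NC and the 4 stimulated groups overlapped. The ratio to NC was 56.7 (15.3 to 474) in EUC and 52.9 (14.2 to 443) in SUC, and the *E. coli* groups differed from the *S. aureus* groups by −0.04 on the log2 scale (95% interval −0.64 to 0.55, adjusted p = 0.973 in edgeR's quasi-likelihood test).

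HAAO and QPRT, which act past KYNU on the route to NAD, were not called higher. HAAO, which opens the ring of 3-hydroxyanthranilate, was at 14.08 CPM ± 0.179 (SD, n = 3) in NC and between 13.29 and 14.26 CPM in the stimulated means, with adjusted p-values from 0.59 to 0.984 in edgeR's quasi-likelihood test. QPRT, which turns quinolinate into an NAD precursor, fell by 0.94 on the log2 scale with EUC, 0.97 with EPL, 0.72 with SUC and 0.78 with SPL, from 273.7 CPM ± 13.1 in NC to 143.2, 139.3, 165.7 and 159.8 CPM, with adjusted p-values from 8.34e-06 to 0.000252 in edgeR's quasi-likelihood test. These falls passed the adjusted p and not the fold threshold. WARS1, the tryptophanyl-tRNA synthetase, rose by the adjusted p in all 4 groups, from 155.6 CPM ± 0.627 in NC to means of 233.7 to 282.6 CPM, also below the fold threshold. AFMID, between IDO1 and KMO in the route, was at 28.18 CPM ± 2.22 in NC and 22.35 to 25.56 CPM in the stimulated means and passed neither threshold. HAAO, QPRT, WARS1 and AFMID were picked for naming after their values were seen. In the comparisons with NC, 40.4 to 48.1% of all tested genes had an unadjusted p under 0.05 in that test. The share past the adjusted p alone is not given here.

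**Figure D4:**
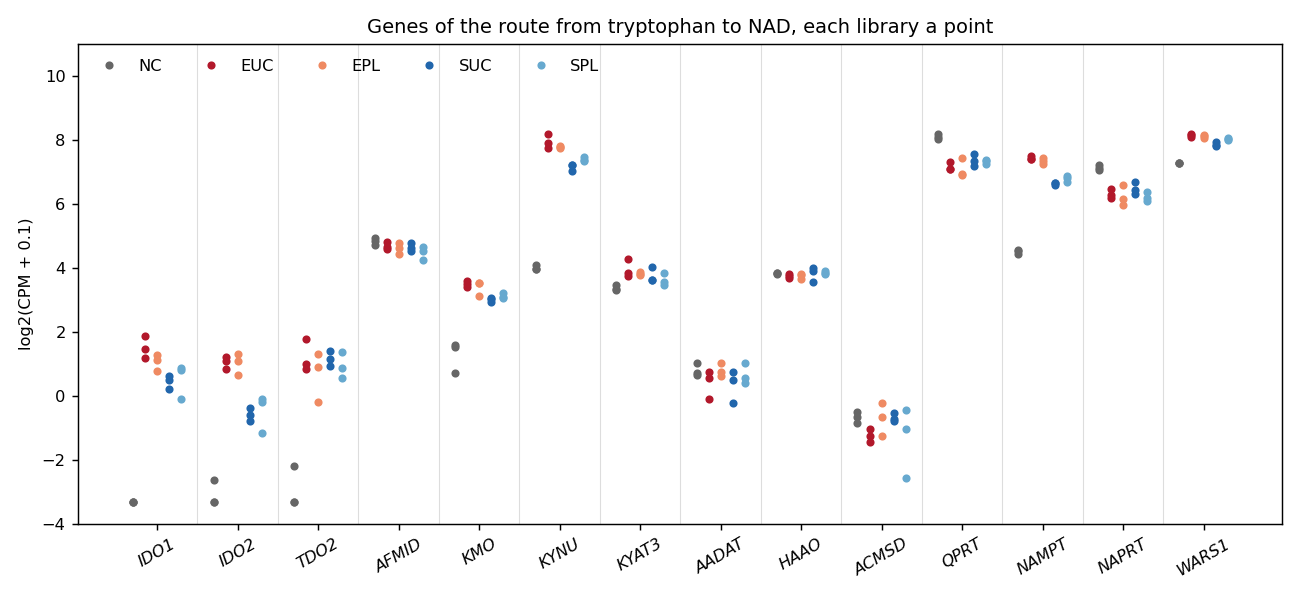
Log2 of CPM plus 0.1 (vertical axis) for genes of the route from tryptophan to NAD, with NAMPT and NAPRT of the salvage routes and WARS1, 1 point per library and 1 color per group. IDO1, IDO2, TDO2, KMO, KYNU, NAMPT and WARS1 have all stimulated libraries above NC, and KYAT3 does so barely (10.86 against 10.85 CPM). That pattern is shared by 17.5% of all tested genes. AFMID, AADAT, HAAO and ACMSD overlap NC, and QPRT and NAPRT have all stimulated libraries below NC. The share of all tested genes with every stimulated library below NC is not given here.

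Among 12 further genes of NAD metabolism, 10 were tested. NMNAT3, the mitochondrial enzyme that completes NAD from its mononucleotide, was called lower in all 4 groups, from 6.297 CPM ± 1.46 (SD, n = 3) in NC to 2.246 with EUC, 2.568 with EPL, 3.043 with SUC and 2.588 with SPL, with adjusted p-values from 0.00034 to 0.00614 in edgeR's quasi-likelihood test. NMNAT2 was also called lower in EUC, EPL and SPL, at a mean under 1 CPM. It was the only one of the 10 called between the species, lower with *E. coli* than with *S. aureus* BEVs. Of all tested genes, 0.0233% were called lower there. The NMNAT2 means were 0.3248 CPM (EUC) and 0.1055 CPM (EPL, 5 counts over its libraries), against 0.9346 CPM (SUC) and 0.7443 CPM (SPL). NADK, which phosphorylates NAD, was called higher in EPL alone (log2 fold change 1.03). NAPRT, the entry of nicotinic acid into NAD, passed the adjusted p and not the fold threshold, with log2 fold changes of −0.81 with EUC, −0.86 with EPL, −0.64 with SUC and −0.90 with SPL. CD38, which consumes NAD, passed the adjusted p on the other side, with log2 fold changes of 0.65, 0.66, 0.67 and 0.76 in the same order. NMNAT2, NADK, NAPRT and CD38 were picked for naming after their values were seen. Of all tested genes, 40.4 to 48.1% had an unadjusted p under 0.05 in these comparisons in edgeR's quasi-likelihood test. In all 4 comparisons, 0 of the 10 were called higher, beside 6.33% of all tested genes, and NMNAT3 alone was called lower, beside 2.41%. In EUC, EPL and SPL 2 of the 10 were called lower, beside 5.75%, 5.15% and 3.7% of all tested genes. In EPL 1 of the 10 was called higher, beside 9.38%.

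Of 19 further genes of arginine metabolism 16 were tested. Of these, 1 was called higher in all 4 comparisons, beside 6.33% of all tested genes. It was SAT1, which acetylates polyamines, and its level went from 13.66 CPM ± 2.42 in NC to 150.9 ± 33.4 with EUC, 135.5 ± 15.7 with EPL, 90.25 ± 18.9 with SUC and 110.2 ± 4.44 with SPL (adjusted p of at most 2.26e-09 in edgeR's quasi-likelihood test). SLC7A2, a transporter of cationic amino acids, was called higher in EUC and EPL, with log2 fold changes of 1.74 and 1.48, and was at 0.62 in SUC and 0.66 in SPL. Its difference between the species was 0.97 (SE 0.1324, adjusted p = 0.000152), which passed the adjusted p and not the fold threshold. NOS3, the endothelial nitric oxide synthase, was called lower in all 4 comparisons, as 2.41% of tested genes were, from 3.867 CPM ± 1.17 to between 0.9807 and 1.493 CPM, and it shares 786 exon bases with ATG9B on the other strand. DDAH1, which degrades methylated arginines, was called lower in EUC and EPL (log2 fold changes −1.09 and −1.21) and was at −0.83 and −0.89 in SUC and SPL. In EUC and in EPL 2 of 16 were called higher, beside 9.43% and 9.38% of all tested genes. Called lower were 2 of 16 in each, beside 5.75% and 5.15%.

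The isoenzymes and competitors of the arginine members stayed low. ARG1, the cytosolic arginase, was at 0.6311 CPM ± 0.123 in NC and 0.6194 to 0.8415 CPM in the stimulated means, with adjusted p-values from 0.642 to 0.982 in edgeR's quasi-likelihood test. NOS2, the inducible nitric oxide synthase, was below the filter with 22 counts over the 15 libraries, at a mean of 0.2234 CPM in NC and 0.02129 to 0.1108 CPM in the stimulated groups. The rise of GCH1 was thus not accompanied by a detectable rise of NOS2 or NOS3. Of 7 further genes of the tetrahydrobiopterin route, 6 were tested, and by the thresholds for DEGs 0 were called in any comparison with NC, beside 6.82 to 9.43% of all tested genes called higher and 3.06 to 5.75% called lower. In each of these comparisons 4 to 5 of the 6 had an unadjusted p under 0.05 in edgeR's quasi-likelihood test, as did 40.4 to 48.1% of all tested genes.

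Some of these 6 passed the adjusted p and not the fold threshold. SPR, the last enzyme of the synthesis, was at 43.35 CPM ± 3.13 (SD, n = 3) in NC and at 25.04 to 31.72 CPM in the stimulated means, lower by adjusted p in EUC, EPL and SPL (log2 fold changes −0.79, −0.77 and −0.65). PCBD1, which helps to recycle the cofactor, was lower in EUC and EPL (−0.51 and −0.57). PCBD2 was higher in EPL (0.40). These 3 genes were picked for naming after their values were seen.

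Of 14 further genes around itaconate and the citric acid cycle, all were tested, and CLYBL, whose product takes part in clearing a breakdown product of itaconate, was called lower in EUC, EPL and SPL. It was at 4.268 CPM ± 0.741 in NC, 2.01 ± 0.573 with EUC, 2.024 ± 0.0223 with EPL, 2.615 ± 0.661 with SUC and 1.967 ± 0.1 with SPL, with adjusted p-values of 0.00126, 0.00138, 0.0264 and 0.0013 in edgeR's quasi-likelihood test. SLC25A1, the mitochondrial citrate carrier, was called lower in EPL, and in EUC it was at a log2 fold change of −0.94; it was named after its values were seen. The other 12 genes of this list were not DEGs in any comparison with NC. Called lower were thus 1 of 14 in EUC, 2 of 14 in EPL, 0 of 14 in SUC and 1 of 14 in SPL. The shares of all tested genes called lower were 5.75%, 5.15%, 3.06% and 3.7% in the same order. Called higher were 0 of 14 in each, beside 6.82 to 9.43% of all tested genes.

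For each tested member, the 3 genes with the highest Pearson r of log2 CPM over the 15 libraries were looked up among 14525 tested genes with a mean of at least 1 CPM. They were LNCAROD, HGD and CCL8 for ACOD1, RAP2C, UGCG and PLSCR1 for IDO1, SERPINE2, LYN and CMPK2 for KYNU, TNFSF15, COL24A1 and CD274 for KMO, SDC4, CD83 and CXCL10 for GCH1, and ELOVL7, MTHFD2 and UGCG for NAMPT. Because NC and stimulated libraries form separate clusters, these r, from 0.9873 to 0.999, mostly reflect the change on stimulation, and between 486 and 904 genes had an r above 0.95 with a member that rose. Over the 12 stimulated libraries alone the closest listed gene was at r = 0.9869 for KYNU (SERPINE2), 0.9918 for NAMPT (ELOVL7) and 0.9388 for ACOD1 (LNCAROD). It was at 0.9385 for KMO (CD274), 0.9111 for GCH1 (CD83) and 0.9043 for IDO1 (RAP2C). Over all 15 libraries ASS1 stood apart with PPIH, XBP1 and PTMAP5, none above 0.9234. Over the 12 stimulated libraries these were at r = 0.9317, 0.9289 and 0.9155, so ASS1 did not stand apart there. The libraries behind these r share 1 NC group and the same normalization, and r is given as a description.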

How the data were processed

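RNA of THP-1 cells, an established cell line, was measured in 15 libraries of 5 groups assigned by their titles and treatments. Per the labels and the study, the authors extracted total RNA with Trizol, made libraries with a NEB kit and sequenced 150-base pairs of reads. The submitters' processing notes name FastQC 0.11.5, HISAT2 2.1.0, StringTie 1.3.3b, featureCounts, DESeq 1.28.0 and hg38. The authors deposited whole-number read counts per gene without normalization; for the counting, annotation release and strand setting were not given in the sources used here. All 60286 rows name a gene (0 rows name none), and 0 columns of values were left unused.

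Genes were kept by filterByExpr of edgeR 4.0.16 (R 4.3.3), which left 17198. Counts were normalized by TMM and fitted by glmQLFit with 1 term per group over all 15 libraries; glmQLFTest gave p-values, adjusted by Benjamini-Hochberg over all tested genes. The common biological coefficient of variation was 0.118. Alternatives were DESeq2 1.42.0, other normalizations, filters, thresholds and fits, and leaving out libraries. CPM used TMM-normalized library sizes, and log2 CPM a prior count of 2. Genes without NC counts got lower limits from 3 counts over the NC libraries; ratios of few counts got 95% exact binomial intervals, both for counting error only. Positions, lengths and overlaps come from GENCODE 44, matched by identifier for 60169 genes. The fits were checked on simulated counts.

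The members and the lists of further genes were chosen with earlier results of these data known. Named beside the members are ARG1, NOS2, IDO2 and TDO2, up to 4 genes of each list called in 1 direction in at least 2 of the 4 comparisons with NC with a mean of at least 1 CPM, and the 3 genes most like each member. The numbers of replicates did not pair the libraries. Start regions were not used for GCH1 and IDO1.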

Additional observations from a re-analysis of the deposited data

How the results depend on the processing

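The members were refitted under 25 alternatives, 15 of which left out 1 library. In 24 of them 6 members were called higher in each of the 4 comparisons with NC; with only the groups compared in the fit, the count for SUC was 5, since ACOD1 did not pass the filter on low counts there. In the comparison of *E. coli* with *S. aureus* BEVs, the count was 0 as reported and 2 (KYNU and NAMPT) without the fold threshold, which follows from the threshold itself. Of 1399 values of single members and comparisons, 1386 kept their direction and their call by adjusted p and fold together, 2 (the same pair) passed without the fold threshold and 11 changed sign, all of them small differences that were called under no setting. With 1 library left out, ASS1 ranged from −0.1758 to 0.0072 in EUC against NC (positive without EUC1), from −0.1088 to 0.0374 in SPL against NC (positive without NC2, SPL1 or SPL3, at 0.0008, 0.0071 and 0.0374), from −0.1309 to 0.0456 in EPL against EUC (positive without EUC3) and from −0.0003 to 0.176 in the interaction of method and species (negative without EUC1). In EPL against EUC, ACOD1 ranged from −0.3726 to 0.0574 and KMO from −0.1587 to 0.025 (positive without EUC3 and EPL1), and IDO1 in SPL against SUC ranged from −0.0257 to 0.4124 (negative without SPL1). With EUC3, EPL1 and SUC3 left out together, ACOD1 and ASS1 in EPL against EUC came to 0.088 and 0.0244. With the same 3 left out, KMO in the species comparison passed the adjusted p (0.00866) and not the fold threshold, at 0.44. Causes were not tested.

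The replicate numbers did not pair the libraries: deviations of same-numbered libraries from their group means had a mean correlation of 0.00946, with 7 of 30 pairs over 0.1. With the replicate block in the fit, KYNU differed between the species by 0.59 (adjusted p = 4.68e-05) and NAMPT by 0.68 (adjusted p = 3.05e-06, edgeR's quasi-likelihood test), and 6 members were called higher against NC in each comparison. Depth limits ARG2, with 2 to 9 counts per library, and ACOD1 and IDO1, with 10 to 54 in stimulated libraries.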
